A study of Mus musculus with 3 samples.

Results

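Among nuclei of the mouse lumbar dorsal root ganglion, 879 of the 17290 that passed the limits on detected genes and on Malat1 formed the Th and Tafa4 group, named for tyrosine hydroxylase and for a secreted chemokine-like protein of the TAFA family. Members were chosen by counts of 12 genes. A nucleus needed 5 or more unique molecular identifiers (UMIs, one per captured RNA molecule) summed over Th, Tafa4, Cdh9, Slc17a8, Lrrc31 and D130079A08Rik, from 3 or more of these genes, and a sum at least 2 times that over Lpar3, Adcyap1, Gfra3, Nxph1, Chrna7 and Trpm8, which mark other sensory neurons. The study compared L3 to L5 ganglia of C57BL/6 mice of wild type, labelled male, at 3 months (adult, 1 library) and at 21 months (aged, 2 libraries), with no other treatment or allele in either group. Nuclei from frozen ganglia were profiled by PIP-seq, a droplet method that templates droplets with particles. The adult library gave 572 members, aged replicate 1 gave 151 and aged replicate 2 gave 156, and values below are always given in this order. How many mice entered each library is not given in the sources used here, and p-values measure at most the spread between these libraries. With 1 adult library, age and library cannot be told apart.

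The libraries held 167664164, 95647106 and 69045987 UMIs in all, and 11518, 5130 and 2611 barcodes with more than 1000 detected genes, of which at most 1 was shared between any pair of libraries. The median member held 22358, 34633 and 45439 UMIs, against 7344, 6992 and 8503 in the 5994 other neurons. The median Malat1 share of a member was 4.16, 1.55 and 1.73%, so the adult library stood apart in this nuclear RNA. Of the members, 564, 146 and 155 also passed a gate on 6 pan-neuronal genes. Xist, the RNA of the inactive X chromosome, stood at 1296, 862 and 896 counts per 1000000 UMIs (CPM) in members although all 3 libraries are labelled male, and the Y-linked Ddx3y at 17.2, 7.15 and 4.59. The other Y-linked genes examined were lower, with 1, 0 and 0 UMIs for Eif2s3y, 23, 3 and 3 for Kdm5d and 41, 6 and 4 for Uty. Xist had 17489, 5184 and 6249 UMIs. The study's methods describe aged mice as female, and the design text gives the aged mice another age than the sample labels do. The part of these differences in the results was not tested.

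C-fibre low-threshold mechanoreceptors are unmyelinated sensory neurons of hairy skin that respond to gentle stroking and to cooling, and are known as the substrate of pleasant touch. Their fine endings surround hair follicles, and their central endings reach the inner part of lamina II of the dorsal horn. In mouse ganglia they are known for Th without the rest of the catecholamine pathway, for Tafa4, which is linked to the control of injury-induced pain, for the vesicular glutamate transporter gene Slc17a8 (VGLUT3), and for the GDNF family receptor genes Ret and Gfra2.

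The promoters of the naming genes Th and Tafa4 are shown because the group is defined by their transcripts. Each is the run of 250 bases before the RefSeq transcription start in build GRCm38.p6, on the minus strand, at chr7:142899996-142900245 for Th and chr6:97060412-97060661 for Tafa4. Capitals mark a full cAMP response element (TGACGTCA) in Th, whose first base lies 45 bases before the start, and an E-box (CACGTG) in Tafa4, 116 bases before the start.
Th: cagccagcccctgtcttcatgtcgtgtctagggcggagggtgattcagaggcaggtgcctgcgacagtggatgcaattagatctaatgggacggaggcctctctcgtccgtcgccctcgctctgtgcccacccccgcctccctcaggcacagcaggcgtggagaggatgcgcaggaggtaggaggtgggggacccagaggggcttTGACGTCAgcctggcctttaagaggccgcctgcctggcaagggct
Tafa4: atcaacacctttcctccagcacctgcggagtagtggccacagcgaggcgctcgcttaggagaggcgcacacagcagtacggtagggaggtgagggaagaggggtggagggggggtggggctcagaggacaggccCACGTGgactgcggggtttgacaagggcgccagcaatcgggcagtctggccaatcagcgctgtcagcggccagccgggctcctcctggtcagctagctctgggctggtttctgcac
TGACGTCA was found in 1.55% and CACGTG in 6.02% of the 32851 RefSeq promoter windows of this length, with both strands searched. The 6 gate genes have 7 promoter entries, of which TGACGTCA occurs in Th alone. TGTGGT, the core of the RUNX motif (Runx1 is a transcription factor of this lineage), was in 0 of the 7 against 14% of all windows. These matches describe letters in a window, not sites in use.

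The gate genes, which chose the members, stood as follows, with levels as CPM, the UMIs of a gene per 1000000 summed UMIs of a group. Th (tyrosine hydroxylase) had 123, 109 and 114 in members and 8.44, 8.9 and 9.0 in other neurons. Tafa4 had 745, 482 and 610.4 in members and 19.4, 18.8 and 20.8 in other neurons. Both were higher in members in every library, as the gate requires. Cdh9, a classical cadherin, stood at 282, 247 and 354 in members. Slc17a8 stood at 64.5, 53.5 and 71.5 and Lrrc31, a leucine-rich repeat gene, at 50.5, 44.7 and 44. The long noncoding RNA D130079A08Rik, at 4912, 2704 and 3275, held 79.5%, 74.3% and 73.3% of all gate UMIs, so the other 5 genes supplied the minority of the molecules that chose a nucleus. At least 1 UMI of Th was found in 65.7%, 62.9% and 71.2% of members, against 2.88%, 3.4% and 5.73% of collagen-rich fibroblast nuclei, which do not use the gene and which had a median of 3221, 5158 and 5858 UMIs. Th and Tafa4 were both detected in 61.5%, 56.3% and 66.7% of members and neither in 3.15%, 4.64% and 6.41%. All 6 gate genes were detected in 69, 31 and 39 nuclei.

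At the limits of the gate, 19, 8 and 5 members held 5 or 6 gate UMIs, and 28, 7 and 7 nuclei with 3 or 4 met the other limits and stayed outside. The ratio to the other 6 genes left out 130, 75 and 69 nuclei. Members with a ratio of 2 to 3 numbered 28, 10 and 11, and nuclei outside with a ratio of 1 to 2 numbered 33, 19 and 18.

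The members were not uniform, and for part of them the data went against the label. The gate asks for a number of UMIs and not for a density, so a nucleus with many UMIs could enter with a low gate level. Density of the 6 gate genes had a dense mode and a lower, broader hump below it in each library (plot of members by gate density), and members were divided at 2000 gate CPM, a value chosen after the data were seen. The gate-rich nuclei numbered 405, 80 and 95, and the gate-poor nuclei 167, 71 and 61. Close to the division, 45, 25 and 18 members lay between 1000 and 2000 and 45, 13 and 15 between 2000 and 4000. Gate-poor nuclei were the larger, with a median of 31216, 42321 and 68643 UMIs against 18903, 27324 and 36280 in gate-rich nuclei. Droplets with a pair of nuclei were not called, and their part in the gate-poor nuclei was not tested.

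**Figure D1:**
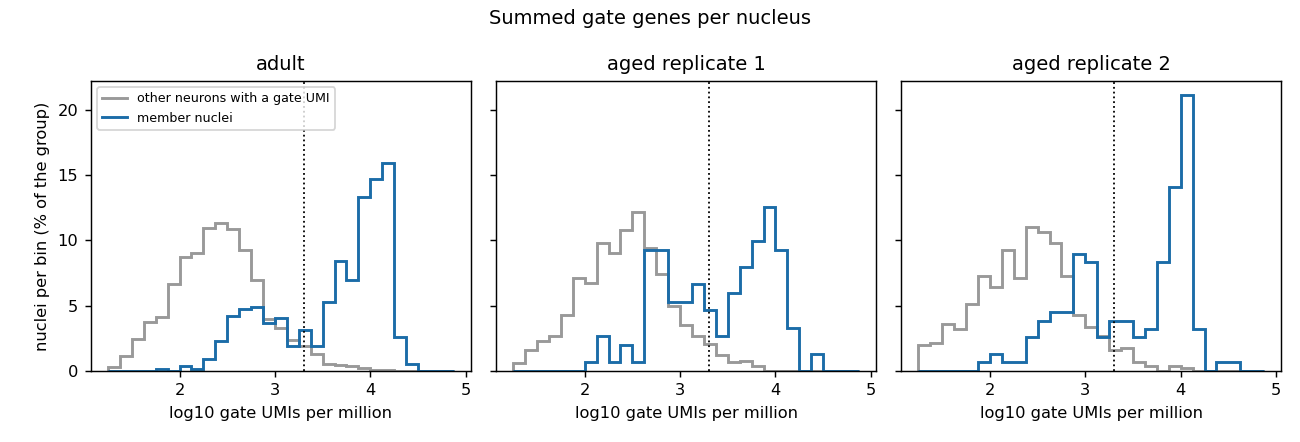
Share of nuclei per bin (vertical axis, percent of the group) by the density of the 6 gate genes in each nucleus (horizontal axis, log10 of gate CPM), for members and for other neurons with a gate UMI, in each of the 3 libraries, with a dotted line at 2000 CPM. The 405, 80 and 95 nuclei at 2000 or more include the dense mode, and the 167, 71 and 61 below 2000 form the lower hump.

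Genes that the gate did not use separated along this density. Zfp521, a zinc finger transcription factor, stood at 1411, 1216 and 1349.8 CPM in members with 4000 or more gate CPM, and at 79.2, 86.5 and 119.7 in those under 500. The low values lay close to the other neurons, which had 100.05, 108 and 95.5. Mrgprd, the receptor that marks non-peptidergic nociceptors, ran the other way, from 4.09, 7.23 and 5.36 in the densest to 143, 65.4 and 66.3 in the sparsest members. Piezo2, which encodes the principal touch channel of sensory neurons, was at 4559.9, 3122 and 3114 in the densest and 1622, 1021 and 1919.7 in the sparsest members. All 3 libraries showed the same order for these 3 genes between the end bands (plot of 6 genes by band). The lowest band of the gate-rich nuclei, from 2000 to 4000, lay between these ends. Its 45, 13 and 15 nuclei had Zfp521 at 462, 508 and 608 and Mrgprd at 32.4, 27.9 and 21.3, and they held more Calca, the CGRP gene of peptidergic neurons, at 512, 218 and 129.8 against 72.8, 66.1 and 28.6 in the densest band. A part of the gate-rich nuclei therefore also carried genes of other neurons. With that limit the label is used here for the gate-rich nuclei, and the gate-poor nuclei are named only by the rule that chose them. They made up 29.2%, 47% and 39.1% of members, so the age comparison is given for all members and for gate-rich nuclei, with the counts in gate-poor nuclei. Of the summed UMIs, gate-poor nuclei held 5725323, 3435515 and 3704765 and gate-rich nuclei 7767979, 2581609 and 3270615. Gate-poor nuclei thus supplied the larger part of the member sums in both aged libraries and the smaller part in the adult one. The part of this shift in the age differences of members was not tested.

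**Figure D2:**
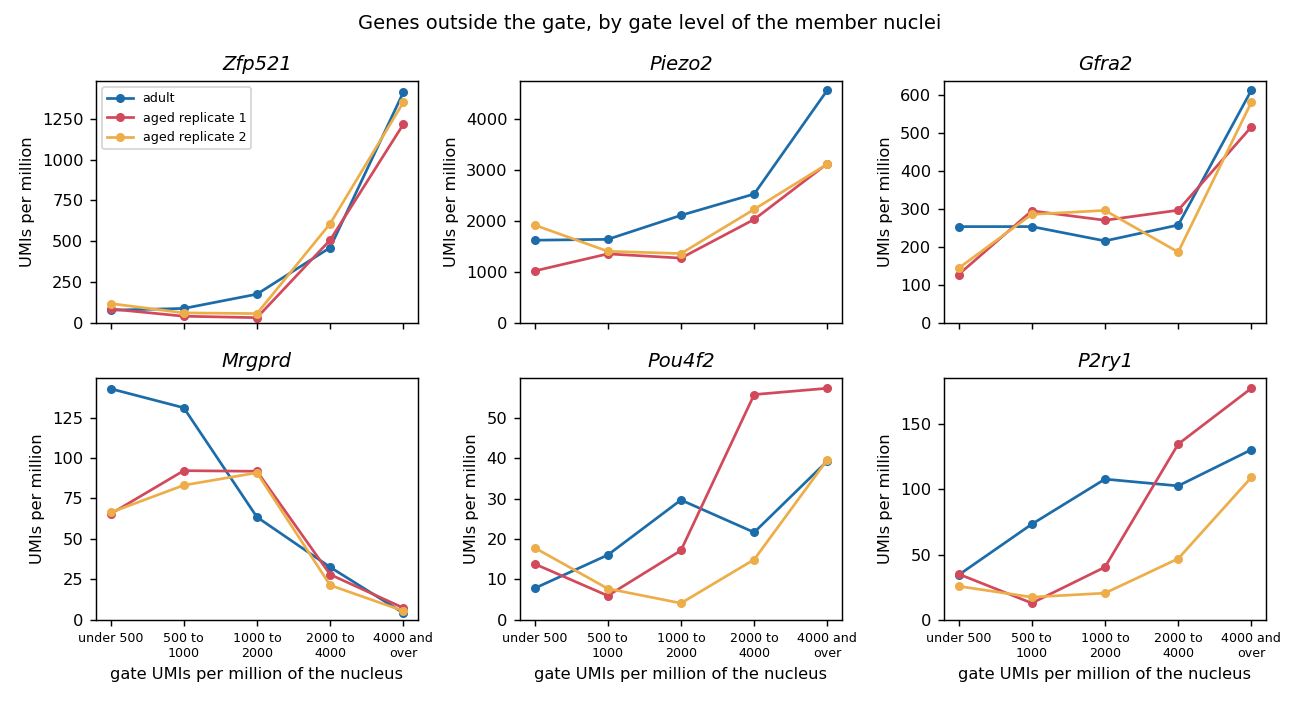
Level of 6 genes outside the gate (vertical axes, CPM) in 5 bands of gate density (horizontal axis, gate CPM) in each library. Zfp521 and Piezo2 stand higher, and Mrgprd lower, in the densest than in the sparsest band of every library.

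Levels are set beside those of other neurons as a description, with no test, since the gate itself is that contrast. Of 9 genes known from this neuron type and kept out of the gate, 9 were higher in members than in other neurons in every library, where 14.7% of the 25564 genes with a UMI in every library were. Gfra2, the neurturin receptor, had 433, 332 and 371 in members against 117, 129 and 126 in other neurons, and Ret, its signalling partner, had 256, 191 and 182 against 135, 178 and 158. For Ret the aged levels in members exceeded those of other neurons by little. Runx1, the runt-domain factor of nociceptor and C-fibre touch lineages, stood at 528, 446 and 462 against 295, 292 and 328, and Pou4f2, a POU-domain transcription factor, at 27.9, 31.4 and 22.7 against 4.13, 4.25 and 4.16. P2ry1, a metabotropic ADP receptor, had 100.3, 88.2 and 58.2 against 17.5, 13 and 16.9. Cacna1h, a T-type calcium channel of touch afferents, had 71.7, 70.8 and 124 against 29, 31.7 and 43.4. For all 9 held-out genes the lowest member level exceeded the highest level in other neurons, though for Ret only at 182 against 178. Rarres1, a retinoid-responsive gene, had 46.6, 71.5 and 66.4 against 8.15, 11.9 and 12.2. Piezo2 had 3220.5, 1919.5 and 2245 against 1295, 1039.5 and 976. The held-out genes differed in how far they set members apart from a similar neuron group. In the 664 gated non-peptidergic nociceptor nuclei Gfra2 stood at 451, 422 and 427, close to its level in members, and Zfp521 at 19.3, 8.91 and 5.37, far below that in members.

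Genes found in 10% or more of member nuclei in every library were then compared, leaving out the 12 gate genes and Malat1. A cut on detection in members favours genes that are high there. Of these 11426 genes 186 (1.63%) were more than 2 times as high in members as in other neurons in every library, and 126 (1.1%) were under 0.5 of it. The 20 with the highest ratio, taking the lowest library and leaving out the gate genes as said, ran from 6.95 for Prrt4 to 22.5 for the uncharacterised Gm14317. Among them were ion channel genes. Cacna1i, the third T-type calcium channel, had 44.8, 44.4 and 63.7 in members and 2.45, 2.82 and 2.56 in other neurons. Kcnj6, an inwardly rectifying potassium channel opened by G proteins, had 102, 105 and 119.6 against 8.72, 10.6 and 14.9. Members exceeded other neurons several-fold for both in each library. Secreted and extracellular proteins were also present, with the metalloproteinase gene Adamts9 at 300.2, 282 and 382 against 27.5, 35.2 and 25.1 and the complement C1q-like gene C1ql4 at 20.2, 11.8 and 7.31 against 1.42, 0.779 and 0.411. Ceacam10, a cell adhesion molecule of the immunoglobulin superfamily, had 19.6, 22.9 and 22.4 against 0.951, 0.909 and 0.913. Plppr1, a membrane protein of neurite growth, had 126, 135 and 181 against 12.5, 11 and 18, and Scin, which severs actin filaments, had 44.2, 45.4 and 63.7 against 4.41, 4.19 and 6.62. Each of these 7 genes was higher still in the gate-rich nuclei, for Cacna1i at 72, 97.2 and 127 and for Adamts9 at 493, 585 and 745.

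Gene families held both higher and lower members. For the counts that follow, of the 25564 genes with a UMI 14.7% were higher and 35.3% lower in members than in other neurons in every library, and of the 11426 genes compared above 22.9% and 38.3%. Lower genes outnumbered higher ones in both sets. Of 16 calcium channel genes 6 were higher and 7 lower in members than in other neurons in every library, and of 25 potassium and HCN channel genes 6 were higher and 14 lower. Kcnd3, an A-type potassium channel, had 1749, 1005 and 1274 in members and 273, 281 and 309 in other neurons, and its auxiliary subunit gene Kcnip4 had 7916, 6246 and 6456 against 3624, 2932 and 3157. In the other direction Kcnmb2, a subunit of BK channels, had 26.9, 19.8 and 16.3 against 169, 188 and 233, the lowest ratio of the 11426 genes, with the gate genes left out. Cacnb2, a beta subunit of calcium channels, had 24.8, 30.2 and 27 against 114, 149 and 188. These low levels were shared with non-peptidergic nuclei, at 12.4, 5.42 and 5.37 for Kcnmb2 and 11.5, 10.1 and 8.59 for Cacnb2. The gated peptidergic nuclei had 545, 664 and 765 for Kcnmb2 and 287, 384 and 410 for Cacnb2. Cacna1c, an L-type calcium channel, stood at 219, 137 and 155 in gate-rich nuclei against 1390.2, 1273 and 1682 in other neurons. Of 13 sodium channel genes 6 were higher and 2 lower. Scn3a had 59.4, 65.8 and 74.3 in members and 32.8, 35.7 and 33.8 in other neurons. The nociceptor channel Scn10a, at 933, 951 and 982, was near the 905, 799.9 and 951 of other neurons and below the 2251, 1676 and 1815 of non-peptidergic nuclei.

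Among 23 channels of mechanical, thermal and chemical sensing, 4 were higher and 12 lower in members. Asic2, an acid-sensing channel subunit, had 3213, 2469 and 2464 in members and 1812, 1361 and 1334 in other neurons. Asic3, a subunit known from muscle and deep afferents, had 37.5, 37.1 and 31.8 in members, 13.5, 8.13 and 2.45 in gate-rich nuclei and 136, 107 and 89.5 in other neurons. Trpv1, the capsaicin receptor, had 27.5, 20.8 and 11.5 against 92.9, 83.7 and 105. Of 26 opioid, purinergic and amine receptor genes 3 were higher and 18 lower, among them the mu-opioid receptor gene Oprm1 at 59.1, 109 and 74.5 against 182, 236 and 257. Of 17 neuropeptide genes 0 were higher (14.7% of all genes) and 13 lower (35.3%). Calca, which encodes CGRP, had 171, 149 and 101 against 563, 413 and 375, and Tac1, the substance P precursor, had 44.8, 59.5 and 39.4 against 196, 158 and 152.

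Of 15 genes of the catecholamine pathway 2 were higher and 7 lower in members than in other neurons in every library, and the other 6 had no common direction or 0 UMIs. The 2 were Th, which chose the members, and Maoa, a monoamine-degrading enzyme of the mitochondrial outer membrane, at 71.2, 81.4 and 80.4 against 28, 35.3 and 33.4. Ddc, the next enzyme after Th, had 1.04, 0.332 and 1.0 CPM in members and 1.59, 1.4 and 1.14 in other neurons. Dbh, which makes noradrenaline, had 1, 0 and 0 UMIs in all members, and Pnmt, which makes adrenaline, had 0, 0 and 0. A count of 0 allows up to 3 UMIs. Slc18a2, the vesicular monoamine transporter, stood at 1.11, 2.33 and 2.01 against 1.16, 1.17 and 1.14, higher in members in both aged libraries but not in the adult one, on 15, 14 and 14 UMIs. Gch1, which starts synthesis of the Th cofactor, stood at 1.41, 1.5 and 3.01 against 2.54, 4.61 and 4.29. The 6 markers of sympathetic neurons, which also use Th, summed to 1.7, 3.16 and 2.15 CPM in members and 1.81, 1.95 and 1.78 in other neurons. Slc17a6 (VGLUT2), the usual glutamate transporter of sensory neurons, was present at 106, 134 and 122 beside Slc17a8, and Mrgprb4, a marker of another unmyelinated touch neuron, had 1, 0 and 0 UMIs.

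Of 31 transcription factors 12 were higher and 16 lower in members. Casz1, a zinc finger factor, had 696, 515 and 558 in members against 216, 184 and 216 in other neurons, and Tox3, an HMG-box factor, had 429.7, 381 and 478 against 94.2, 78.8 and 86.2. Both differences were larger than the spread over the 3 libraries. Shox2 and Runx3, factors of fast touch and proprioceptive neurons, stood at 4.67, 3.82 and 2.01 and at 1.85, 5.48 and 1.72 in members against 10.8, 14.9 and 9.45 and 6.56, 8.34 and 6.99 in other neurons. Of 26 GABA and glutamate receptor genes 7 were higher and 12 lower. Gabrg3 had 13.7, 7.48 and 5.45 against 65.3, 42.2 and 57.3 and the metabotropic receptor gene Grm5 8.75, 5.48 and 3.73 against 42, 26.1 and 28. Non-peptidergic nuclei were near the members, with 10.8, 6.81 and 3.86 for Gabrg3 and 5.77, 4.89 and 4.94 for Grm5. Of 36 adhesion and guidance genes 8 were higher and 20 lower. The higher ones include the gate gene Cdh9, which chose the members. Cdh10 had 343, 282 and 334 against 47.9, 60.2 and 43.4, and the semaphorin co-receptor gene Nrp1 had 396, 275 and 324 against 105, 124 and 115.

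**Figure D3:**
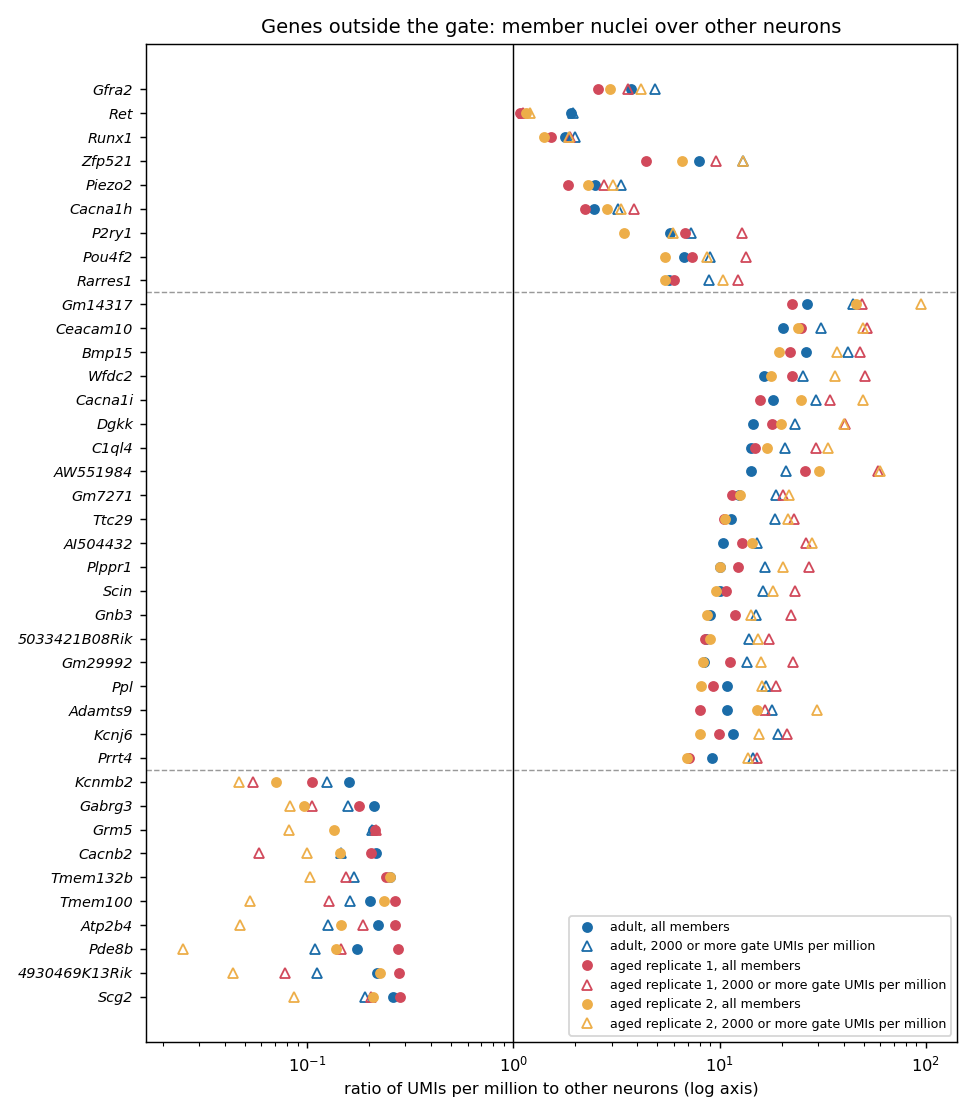
Ratio of the level in members to that in other neurons (horizontal axis, log scale) for the 9 held-out genes, the 20 highest and the 10 lowest genes, by library, with circles for all members and triangles for gate-rich nuclei. The circles of the 9 held-out genes lie above 1 in every library, and Kcnmb2 has the lowest circle.

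Markers of cells that are not neurons were present in members at the level of traces. The 9 defining genes of glia, fibroblasts, vessels and leukocytes summed to 119, 122 and 59.1 CPM in members, 108, 105 and 53.8 in gate-rich nuclei and 141, 148 and 91.3 in other neurons, against 715, 559 and 417 in the free RNA of barcodes with at most 200 UMIs. None of the 9 was at 0. As an upper limit from these sums, free RNA made up at most 16.6, 21.8 and 14.2% of member UMIs. Other genes set a lower limit. The fibroblast gene Dcn, outside these 9, had 26.9, 27.6 and 6.74 CPM in members against 443, 357 and 318 in free RNA. Subtraction at the upper limit can therefore remove more than free RNA supplied. The myelin gene Pmp22 had 249, 231 and 189 in members against 137, 162 and 128 in other neurons, and the myelin gene Mbp had 136, 107 and 86.3 against 72.8, 89.3 and 66.9. Both were higher in members in every library.

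The study's comparison of age asks how ganglion cells differ between adult and aged mice. Members made up 5.23% (95% exact binomial interval 4.82 to 5.66) of nuclei in the adult library, 3.65% (95% exact binomial interval 3.1 to 4.26) in aged replicate 1 and 7.07% (95% exact binomial interval 6.03 to 8.22) in aged replicate 2. The adult share lay between both aged shares, so the groups overlapped. The aged mean was 5.36% ± 2.42 (SD, n = 2), 0.131 percentage points above the adult share, and permuting the labels of the 3 libraries exactly gave p = 1 (exact permutation test, two-sided, smallest possible p = 0.333). The sign of this small difference turned under each other definition tried. As a share of neurons the values were 14.1%, 8.6% and 14.8%. With more than 2000 genes per nucleus they were 11.3%, 5.87% and 9.94%, and gate-rich nuclei were 9.96%, 4.56% and 9.03% of neurons. In both of these the adult share lay above both aged shares (exact permutation p = 0.667 each). Intervals cover counting error only.

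For the level of each gene, UMIs were summed over the members of each library and compared by the quasi-likelihood test of edgeR, adjusted over all genes by Benjamini and Hochberg, with 1 residual degree of freedom that comes from the aged pair. The lone adult library is assumed to vary like them. In members 562 of 16372 genes (3.43%) passed an adjusted p of 0.05, 120 (0.733%) higher and 442 (2.7%) lower in the aged libraries. In gate-rich nuclei 281 of 13849 (2.03%) passed, 46 (0.332%) higher and 235 (1.7%) lower, and in gate-poor nuclei 516 of 14793 (3.49%), 66 (0.446%) higher and 450 (3.04%) lower. Adjusted p-values rest largely on a spread that edgeR shares across genes. The test of whether an age difference differed between members and other neurons called 0 of 20186 genes (0.0%; 1335 at an unadjusted p under 0.05). The same test with gate-rich nuclei called 227 of 19807 (1.15%), 110 with the larger rise or smaller fall in gate-rich nuclei and 117 the reverse. Both tests of this difference also leave 1 residual degree of freedom, with no second adult library. Very small p-values from them do not measure how well an age effect would repeat in other mice. The median log2 difference over all genes was 0.01 in members and 0.02 in gate-rich nuclei.

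Alox5, Plcz1 and Gdpd2 rose in the aged libraries in members and in gate-rich nuclei. Alox5, which encodes 5-lipoxygenase, the first enzyme of leukotriene synthesis (chromosome 6, 116410077 to 116461178 in GRCm38), had 0.901, 17.4 and 17.1 CPM in gate-rich nuclei and 1.07, 0.877 and 0.868 in other neurons. Both aged libraries lay far above the adult one in the former, and the 3 libraries lay close together in the latter. The log2 difference was 2.98 ± 0.55 (SE), adjusted p = 0.00683 in members and 4.06 ± 0.59 (SE), adjusted p = 1.82e-05 in gate-rich nuclei. Plcz1 encodes phospholipase C zeta, known from sperm (chromosome 6, 139989673 to 140041457). It had 2.57, 30.6 and 31.8 in gate-rich nuclei and 2.0, 5.36 and 1.64 in other neurons, and rose by 3.42 on the log2 scale (adjusted p = 2.45e-06). Gdpd2, a glycerophosphodiester phosphodiesterase gene of the X chromosome (100729873 to 100738895), had 1.42, 12 and 17.1 in gate-rich nuclei and 2.6, 2.7 and 3.29 in other neurons, and rose by 3.19 (adjusted p = 0.000694). Its rise in all members (2.38, adjusted p = 0.0248) did not pass under DESeq2's Wald test (adjusted p = 0.168). The differences from other neurons in the age effect were 4.50, 2.89 and 3.10 on the log2 scale for the 3 genes (adjusted p = 3.69e-05, 0.000116 and 0.00165). That of Plcz1 was 3.96 or 2.10 without aged replicate 1 or 2. Plcz1 overlaps Capza3 on the other strand, and whether the counting used strand is not given in the sources used here.

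The number of nuclei behind these 3 rises was small. In gate-rich nuclei at least 1 UMI of Alox5 was found in 7, 23 and 29 nuclei, of Plcz1 in 16, 13 and 17 and of Gdpd2 in 10, 13 and 26. The 5 richest nuclei held 45, 64.6 and 69.2% of the Plcz1 UMIs. With each nucleus thinned to 5000 UMIs, which left out 104, 17 and 20 shallower gate-rich nuclei, Alox5 was detected in 0.664% (95% interval 0.0806 to 2.38), 9.52% (95% interval 3.58 to 19.6) and 6.67% (95% interval 2.2 to 14.9).

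Nlgn1, Tafa1 and Kcnq1 rose in gate-rich nuclei. Nlgn1, a postsynaptic adhesion molecule (chromosome 3, 25426215 to 26332460), had 121, 459.8 and 496 CPM in gate-rich nuclei and 382, 363 and 271 in other neurons. It was below the other neurons in the adult library and above them in both aged libraries. Its log2 difference was 1.82 ± 0.25 (SE), adjusted p = 7.28e-06 in gate-rich nuclei and 0.51 (adjusted p = 0.182) in all members, which did not pass. Tafa1, a relative of Tafa4, had 124, 306 and 322 in gate-rich nuclei and 767, 591 and 512 in other neurons, and differed by 1.18 (adjusted p = 0.00329). Kcnq1, a voltage-gated potassium channel of heart and epithelia, had 29.7, 77.1 and 78.3 in gate-rich nuclei and 14.6, 7.14 and 8.59 in other neurons. It rose by 1.22 in gate-rich nuclei (adjusted p = 0.0114) and fell in other neurons, with a log2 difference of -1.04 (adjusted p = 0.0206). The difference from other neurons in the age effect was 2.23 for Nlgn1, 1.78 for Tafa1 and 2.24 for Kcnq1 (adjusted p = 7.33e-43, 1.05e-28 and 4.6e-12). Such p-values rest on the spread shared across genes and on a lone adult library. In all members the same difference passed for 0 of the 3. Kcnq1 contains the antisense RNA Kcnq1ot1, whose reads cannot be told apart without strand.

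At 5000 UMIs per nucleus, Nlgn1 was detected in 31.9% (95% interval 26.7 to 37.5), 68.3% (95% interval 55.3 to 79.4) and 70.7% (95% interval 59 to 80.6) of gate-rich nuclei, and in 51.2, 39.8 and 29.9% of collagen-rich nuclei. Tafa1 was detected in 20.9, 49.2 and 44% of gate-rich nuclei and Kcnq1 in 12.6, 27 and 29.3%. For each of the 3 genes both aged shares exceeded the adult share. The 5 richest nuclei held 20.4, 27.3 and 22.1% of the Nlgn1 UMIs and 11.7, 29.6 and 31.2% of those of Kcnq1, but 54.3, 57.2 and 56.6% of those of Tafa1. At the same depth the gate gene Th was detected in 49.8, 50.8 and 65.3% and Tafa4 in 94.7, 92.1 and 94.7%.

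**Figure D4:**
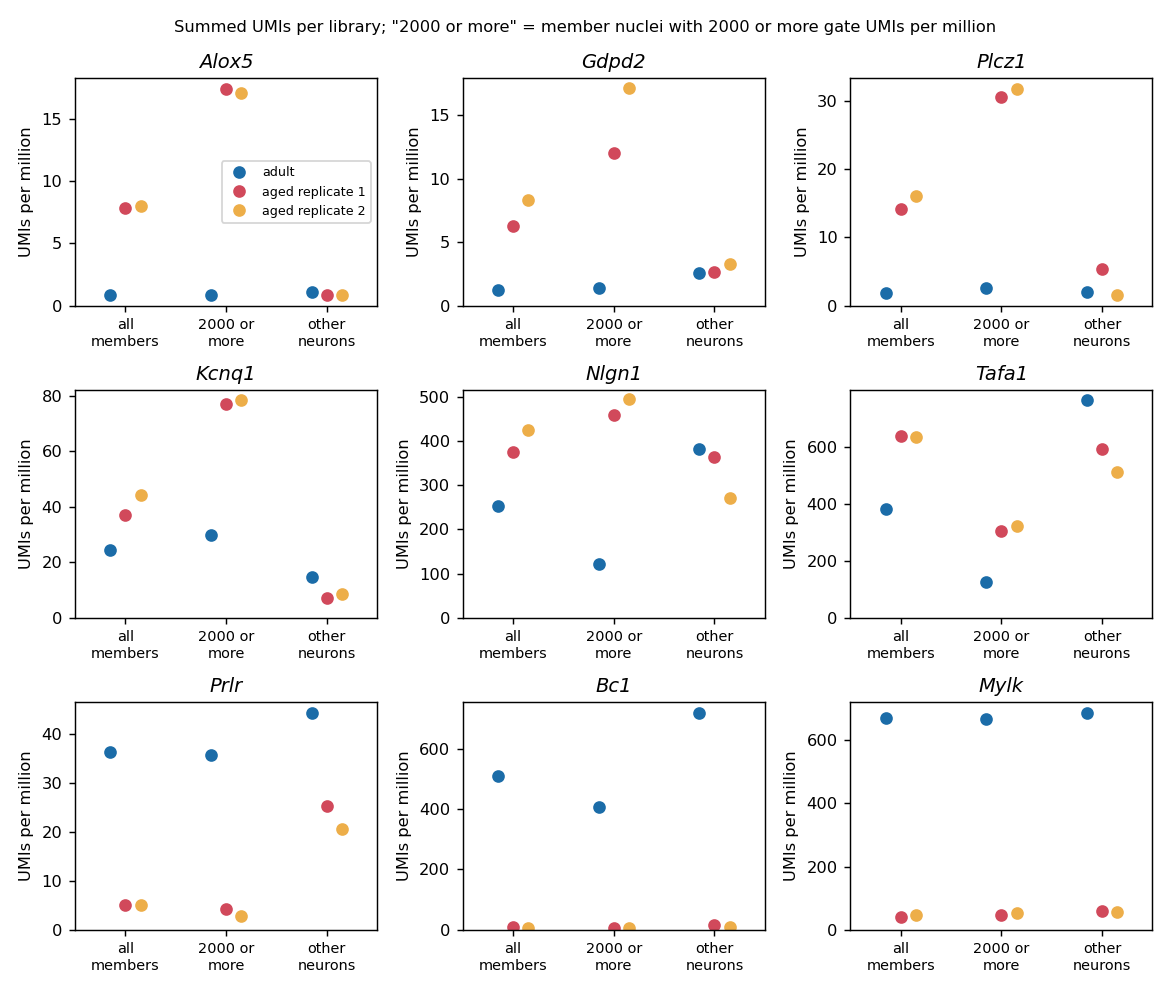
Level of 9 genes (vertical axes, CPM) in all members, in gate-rich nuclei (2000 or more) and in other neurons (horizontal axes), with 1 point per library and the adult and aged libraries in different colours. Alox5, Gdpd2, Plcz1, Kcnq1, Nlgn1 and Tafa1 stand higher in the aged libraries of gate-rich nuclei, and Prlr, Bc1 and Mylk lower.

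Further genes rose in gate-rich nuclei. Crhr2, a receptor of corticotropin-releasing hormone and urocortins, had 1.29, 5.04 and 14.7 and differed by 2.79 (adjusted p = 0.0300), or by 3.37 or 1.73 without aged replicate 1 or 2. Slc5a11, a sodium and inositol cotransporter gene, had 7.08, 25.6 and 39.7 and differed by 2.05. Timd2, a receptor of the TIM family, differed by 2.44 and the carbonyl reductase gene Cbr3 by 1.77. For Slc5a11, Timd2 and Cbr3 other neurons rose too, by 1.62, 2.29 and 1.46. Grhl1, a grainyhead transcription factor, differed by 1.69 and the protocadherin gene Pcdhb7 by 1.79. Reads of Pcdhb5, which rose in members by 2.14, and Pcdhb7 could be shared with near copies in their cluster, so both are uncertain. In members neither passed under DESeq2 (adjusted p = 0.325 and 0.285), and Pcdhb5 was also lost with the stricter gate, after subtraction of free RNA, without the gate genes and Malat1, and in gate-rich nuclei (adjusted p = 0.0796, 0.0949, 0.0543 and 0.0972).

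The other large rises in members included those of multicopy genes. Igha, the constant region of immunoglobulin A, had 0, 18 and 34 UMIs, at least 18.0-fold higher in the aged libraries against a floor of 3 UMIs in the adult library, and its level in free RNA was 1.49, 82.6 and 128 CPM. After subtraction of free RNA at its upper limit, Igha had too few UMIs to be tested. The part of free RNA in its rise was not tested further. EU599041, Csprs and Olfr1062 rose by 4.27, 3.45 and 3.36 in members and by 3.96, 3.31 and 3.86 in other neurons, and have near copies that can share reads. EU599041 and Csprs had too few UMIs to test in gate-rich nuclei, where they stood at 4, 0 and 3 and 4, 3 and 3 UMIs. Cpb1, a carboxypeptidase gene, rose by 2.25 in members and had 4, 7 and 3 UMIs in gate-rich nuclei. With the stricter gate the calls of EU599041, Csprs and Cpb1 were lost (adjusted p = 0.0733, 0.0674 and 0.147), and under DESeq2 those of Olfr1062 and Cpb1 (adjusted p = 0.0907 and 0.114). Olfr1062 did not pass in gate-rich nuclei either (3.66, adjusted p = 0.0914).

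Most of the largest falls in members also passed the test in other neurons. Bc1, a small cytoplasmic RNA of neurons, had 509, 9.97 and 6.16 CPM in members and fell by 6.15 on the log2 scale, with a difference of -6.16 in other neurons. Its level in free RNA, 1455, 29.6 and 20.1, moved the same way, and the part of free RNA in this fall was not tested beyond its subtraction, after which the difference was -6.50. Mylk, the myosin light chain kinase, had 669, 41.5 and 48.2 in members (-4.05; -3.71 in other neurons). Dsp (desmoplakin), Gt(ROSA)26Sor, Map3k7cl and Mfap5 (a microfibril protein) had log2 differences of -5.83, -5.44, -4.66 and -4.36 in members and of -5.47, -5.0, -4.60 and -3.70 in other neurons. Without aged replicate 1 or 2 the difference in members was -5.33 or -6.71 for Dsp, -6.07 or -4.97 for Gt(ROSA)26Sor and -3.41 or -5.51 for the phosphatase gene Acp7. Prdm6, a chromatin factor, differed by -4.37 and -2.77. Itgad, an integrin subunit gene, had 49, 2 and 0 UMIs in members, and its adult level was 23.6 times the aged level (counting interval 6.19 to 200.3). Its call was lost with the stricter gate (adjusted p = 0.0641), DESeq2 gave it no adjusted p, and its fitted log2 difference of -4.58 was -8.26 or -3.59 without aged replicate 1 or 2. Acp7 differed by -4.08 in members and did not pass in other neurons (-0.68, adjusted p = 0.166). Of its 97 adult UMIs 60 came from 1 nucleus and 83.5% from 5 of 572, and in gate-rich nuclei it did not pass (adjusted p = 0.115).

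Receptor and channel genes were also among the falls. Prlr, the prolactin receptor, had 36.3, 4.99 and 5.16 CPM in members, 35.8, 4.26 and 2.75 in gate-rich nuclei and 44.5, 25.4 and 20.6 in other neurons. Both aged libraries lay below the adult one in all 3 sets. The log2 difference was -3.53 ± 0.41 (SE), adjusted p = 2.65e-07 in gate-rich nuclei and -1.09 in other neurons, and the age effect differed between them by -2.46 (adjusted p = 4.68e-08). Trpm3, a heat-activated cation channel, had 826, 326 and 271 in gate-rich nuclei and 1402, 953 and 1011 in other neurons, with log2 differences of -1.63 and -0.65 and an age effect that differed by -1.0 (adjusted p = 6.7e-11). At 5000 UMIs Trpm3 was detected in 93.7, 68.3 and 69.3% of gate-rich nuclei and Prlr in 13, 0 and 1.33%. Kcnk4 (TRAAK), a mechanically gated potassium channel, had 160, 11 and 14 UMIs in members (-2.77, adjusted p = 0.00182) and fell in other neurons too (-1.72). Il31ra, the interleukin 31 receptor of itch neurons, differed by -1.10 in members and -0.66 in other neurons.

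Several large falls in gate-rich nuclei rested on a handful of adult nuclei. Htr1f, a serotonin receptor gene, had 717, 12 and 16 UMIs in gate-rich nuclei and a log2 difference of -4.42, but 499 of the adult UMIs came from 3 of 405 nuclei and the 5 richest held 83.8%. With nuclei thinned to 5000 UMIs it was detected in 5.65% (95% interval 3.32 to 8.89), 3.17% (95% interval 0.387 to 11) and 1.33% (95% interval 0.0338 to 7.21). These intervals cover the counting of nuclei within a library and do not test age. Myo7b, an unconventional myosin, had 116, 0 and 1 UMIs, 107 of them in 1 adult nucleus. The 5 richest adult nuclei held 86% of the 114 UMIs of the phosphodiesterase gene Pde4c, 91.8% of the 97 of Rps23rg1 and 70.7% of the 58 of the cation exporter gene Slc47a1. For Prlr and Mylk the same share was 14% and 5.94%. A test on summed UMIs does not see this concentration.

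**Figure D5:**
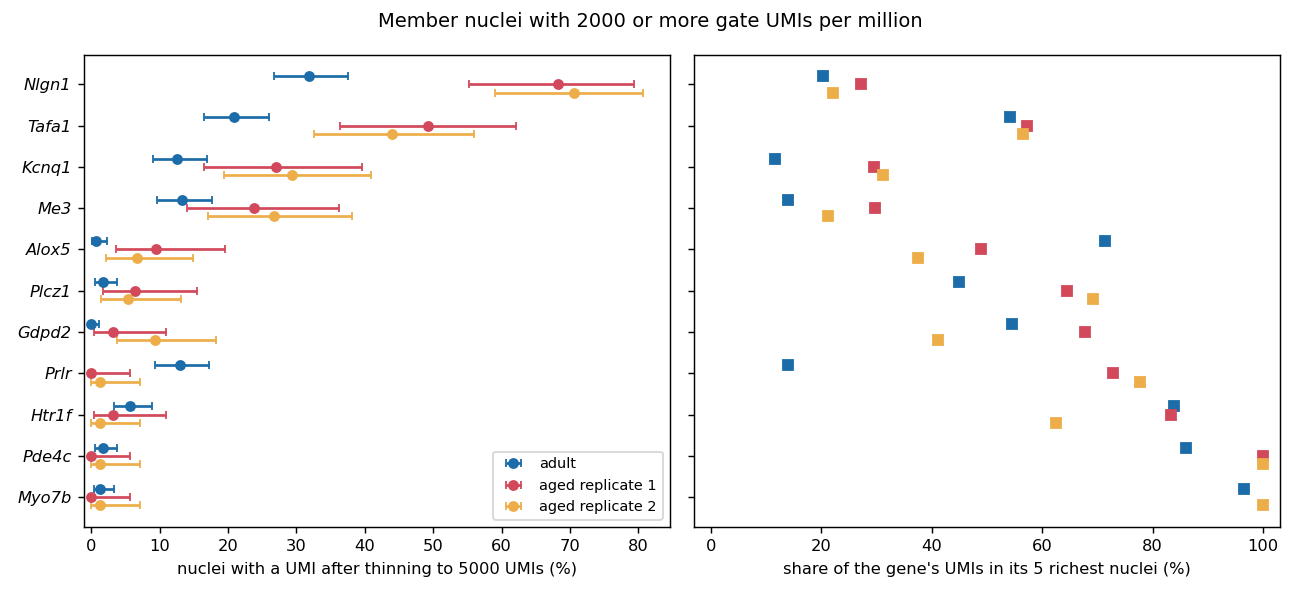
Share of gate-rich nuclei with a UMI after thinning to 5000 UMIs (percent, with 95% exact binomial intervals) and share of a gene's UMIs held by its 5 richest gate-rich nuclei (percent), for 11 genes in each library. Nlgn1, Tafa1 and Kcnq1 are detected in a larger share of aged nuclei, whereas the adult UMIs of Htr1f, Pde4c and Myo7b sit mostly in 5 nuclei.

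Of the 9 held-out identity genes 0 passed the age test in members, where 3.43% of all genes did, so the count is near the background and sets these genes apart in no way. Under DESeq2 Piezo2 alone passed (adjusted p = 0.0190). The list had a median log2 difference of -0.45 in members and -0.18 in gate-rich nuclei. Zfp521 differed by -0.67 in members and -0.35 in gate-rich nuclei, and Piezo2 by -0.78 and -0.73. The gate genes chose the nuclei, and their differences are a description with no test. Th differed by -0.29 in members, Tafa4 by -0.60 and D130079A08Rik by -0.87. In gate-rich nuclei the age effect of Ret differed from that in other neurons (-0.80, adjusted p = 0.000593), 1 of the 9 held-out genes against 1.15% of all genes.

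Of the 39 gene lists, that of the cytoskeleton had the most calls in members. Of 17 genes of neurofilaments, tubulins and their partners, 7 fell and 0 rose, where 2.7% of all genes fell and 0.733% rose, with a list median of -0.70 against 0.01 over all genes. Nefl, the light neurofilament chain, had 952, 570.0 and 342 CPM in members (-1.22), Nefm, the medium chain, had 572, 365 and 204 (-1.17), and Map1b, a microtubule-associated protein, had 2858, 2002 and 1474 (-0.88). Tuba1a, Tubb3, Map1a and Stmn2 were the other 4. Under DESeq2 5 of 17 fell, and Nefl, Nefm and Tubb3 did not pass (adjusted p = 0.486, 0.727 and 0.0703). In gate-rich nuclei 0 of 17 passed, at a list median of -0.60 (2.03% of all genes passed there), and in other neurons Map1b alone passed (5.07% of all genes), at a list median of -0.42. The summed level of the list was 16394, 11823 and 10592 CPM in members, 19048, 15449.8 and 13318 in other neurons and 18842, 12182 and 11594 in non-peptidergic nuclei, lower in both aged libraries in each. In gate-poor nuclei Nefl differed by -1.58 (adjusted p = 0.00388). These transcripts are abundant in free RNA, where Nefl stood at 3649, 5385 and 4442 CPM. Subtracting free RNA at its upper limit left 4658, 0 and 0 Nefl UMIs in members, against 12839, 3430 and 2389 before. In both aged libraries the amount to subtract exceeded the Nefl UMIs counted, so the limit was too high there.

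Of 9 abundant noncoding RNAs other than Malat1, 3 fell in members and in gate-rich nuclei, namely Meg3, Neat1 and Bc1, where 2.7% and 1.7% of all genes fell. In other neurons 5 of 9 fell, against 4.15% of all genes. Meg3, an imprinted RNA of neurons, had 12996, 5891 and 6701 CPM in members, a log2 difference of -1.20. Neat1, the scaffold of paraspeckles, had 115, 77.8 and 45.2 and differed by -1.07, which did not pass under DESeq2 (adjusted p = 0.0599). Malat1, on which nuclei were chosen, differed by -1.57, given as a description.

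In each list described next at most 2 genes passed in members, where 3.43% of all genes did. Of 23 interferon and MHC class I genes 1 rose in members, Gbp2, an interferon-induced GTPase, with 0.296, 4.15 and 2.87 CPM and a log2 difference of 3.34. In other neurons 5 of 26 rose (0.918% of all genes). In gate-rich nuclei, where Gbp2 had 3, 13 and 4 UMIs, 0 of 19 passed. Of 16 injury and regeneration genes Stmn2 fell, and of 14 senescence and stress genes Cdkn1a and Hsp90aa1 fell, with log2 differences of -0.71, -0.90 and -0.97. Sv2a, a synaptic vesicle protein, was 1 of 26 synaptic release genes that passed (-0.96). Of 36 adhesion and guidance genes Cdh8 rose (0.80) and Cdh13 fell (-0.82), but subtracting free RNA at its upper limit turned the direction of Cdh13. Under DESeq2 Gbp2, Cdkn1a, Hsp90aa1, Sv2a, Cdh8 and Cdh13 did not pass (adjusted p from 0.114 to 0.914). In members edgeR's test passed in 0 of 13 sodium channel genes, 0 of 15 calcium channel genes, 0 of 25 potassium and HCN channel genes on that list, 0 of 26 GABA and glutamate receptor genes, 0 of 30 transcription factors, 0 of 15 clock genes and 0 of 11 mitochondrial genes. DESeq2 called 1 gene of these lists, Kcnd3 (-0.77 by edgeR, adjusted p = 0.0475 by DESeq2). The potassium channel list holds neither Kcnk4, which fell and is on the list of sensing channels, where it and Trpm3 were the 2 of 21 that passed, nor Kcnq1, which is on no list. In gate-rich nuclei Kcnip1 of the potassium channel list fell (-1.01).

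Single markers of other cells moved with age in the sums of all members, and the rest of their lists did not pass there. Of the genes tested in members, 1 of 6 for satellite glia, 1 of 6 for myelinating Schwann cells, 0 of 6 for fibroblasts, 1 of 5 for endothelium and 1 of 4 for myeloid cells fell, and 0 rose. Fabp7 of satellite glia, Pecam1 of endothelium and Cx3cr1 of macrophages had log2 differences of -1.60, -2.05 and -2.33. The other 4 endothelial genes lay between 0 and 8.31 CPM and the other 4 myeloid genes between 0.815 and 4.52 in all libraries, so that Pecam1 and Cx3cr1 made up most of the adult sums of their lists. Under DESeq2 Fabp7 and Pecam1 did not pass (adjusted p = 0.112 and 0.674), and without aged replicate 1 or 2 they differed by -2.23 or -1.15 and by -2.86 or -1.51. The whole lists stood at 143, 163 and 98.2 CPM for satellite glia, 552, 439 and 326 for myelinating Schwann cells, 70.6, 66.6 and 22.7 for fibroblasts, 60.5, 35.1 and 13.8 for endothelium and 49.1, 20.9 and 16.1 for myeloid cells. In each list aged replicate 2 was the lowest. In gate-rich nuclei 2 of 6 satellite glia genes fell, Fabp7 and Ednrb (-2.64), where 1.7% of all genes fell. Ednrb stood there at only 8.63, 0.775 and 2.14 CPM. In all members it had 10.1, 12 and 6.45 CPM, on 136, 72 and 45 UMIs, and did not pass. Pecam1 and Cx3cr1 fell there too, and 0 of 5 genes did in the Schwann cell and fibroblast lists. The age effect of Ednrb (-2.54) and Flt1 (-1.99) in gate-rich nuclei differed from that in other neurons, where 1.15% of all genes did. Flt1 stood at 10.7, 5.81 and 2.14 CPM in gate-rich nuclei, so both differences rest on few UMIs. The part of other cells' RNA in the gene differences of members and of gate-rich nuclei was not tested.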

How the data were processed

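Deposited files held raw UMI counts per gene and barcode for 3 libraries, which the authors made with Pipseeker v3.3.0 (alignment and transcript counting) on build mm10, with replicates not pooled; the annotation is not given in the sources used here. Barcodes with more than 1000 genes and Malat1 at 0.5% of UMIs or more were kept, and members met the gate given above. No doublets were called. Other neurons had 5 or more UMIs from 3 or more of 6 neuronal genes, at least 2 times those of 9 genes of other cells. Gated groups were other neurons with 5 or more UMIs from 3 or more genes of their own list. That sum was at least 2 times that of the gate genes and of each other group's list. Counts were summed per library and group and tested with edgeR 4.0.16 (TMM, filterByExpr, glmQLFit) in R 4.3.3, with DESeq2 1.42.0 as an alternative; the code was tested on simulated data. The study's Wilcoxon test on nuclei was not used, since nuclei are not replicates. Log2 differences are aged minus adult. Shares were compared by an exact permutation test with Clopper-Pearson intervals. Named genes were the 10 largest rises and falls (interaction, 5 each) past adjusted p 0.05 with 50 or more UMIs, the same direction in both aged libraries, and outside Gm, Rik, gate, sex and mitochondrial genes; members of 39 lists; and the 20 highest level ratios. The rule was also applied to gate-rich nuclei, and genes beyond it were chosen after their values were seen. Some genes that it names are not reported here. Members, lists and tests were chosen with earlier results of these data known. Gene positions are from GENCODE M21 (GRCm38), where 99.8% of 32227 gene IDs matched.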

Additional observations from a re-analysis of the deposited data

Results flagged for a closer look

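For 10 genes the age difference on the log2 scale differed between gate-rich nuclei and other neurons in a direct test of that difference, by the quasi-likelihood test of edgeR, with p-values adjusted over 19807 genes. They are the 5 largest in each direction by the rule for named genes. This test has 1 residual degree of freedom and a lone adult library. The rule kept only genes with the same direction when either aged library was left out, so the shared direction of all 10 was set by choice. Leaving out an aged library gives 1 library against 1, a value with no test. The size moved by over 1.5 times for 4 of the 10. Without aged replicate 1 or 2 the difference was 3.96 or 2.10 for Plcz1, -3.29 or -9.57 for Myo7b, -9.59 or -1.58 for Rps23rg1 and -3.79 or -2.37 for Slc47a1. For Myo7b and Rps23rg1 an aged library held 0 UMIs of the gene, and such fitted values depend on the prior count.

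Of the 5 with the more positive difference in gate-rich nuclei, Alox5 differed by 4.50 (adjusted p = 3.69e-05), Gdpd2 by 3.10 (adjusted p = 0.00165) and Plcz1 by 2.89 (adjusted p = 0.000116). Kcnq1 differed by 2.24 (adjusted p = 4.6e-12), with a UMI in 132, 44 and 55 gate-rich nuclei. Ces4a, a carboxylesterase gene, differed by 2.40 (adjusted p = 0.00405) with 13.7, 1.43 and 2.37 CPM in other neurons, where it fell, and 6.44, 5.42 and 4.28 in gate-rich nuclei, where 24, 5 and 5 nuclei held a UMI and the age test did not pass (adjusted p = 0.866).

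Of the 5 with the more negative difference, Pde4c differed by -4.84 (adjusted p = 2.04e-17), Htr1f by -4.18 (adjusted p = 1.85e-57) and Myo7b by -4.37 (adjusted p = 0.0248). Rps23rg1 differed by -3.31 (adjusted p = 0.0478) and Slc47a1 by -3.06 (adjusted p = 0.0343). In each of these 5 the 5 richest adult nuclei held 70.7% or more of the adult UMIs of gate-rich nuclei. In all members Htr1f had 107, 75.6 and 49.2 CPM, and its age effect did not pass the test of the difference from other neurons (-0.68, adjusted p = 0.703).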

How the results depend on the processing

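No paired analysis was possible, since replicate numbers count libraries within an age group and link no adult library to an aged one. The 562 age calls in members became 1113 with no filter on low counts, 849 with no Malat1 minimum, 1010 after subtraction of free RNA, 208 by DESeq2's Wald test and 281 in gate-rich nuclei, an alternative chosen after the data were seen. DESeq2 size factors (673), the stricter gate (606), more than 2000 genes (783) and leaving out the gate genes and Malat1 (482) stayed within 1.5 times. Without aged replicate 1 or 2 the comparison is 1 library against 1, with no test, and all 562 and 561 calls with a value kept their direction. The calls were made on the same 3 libraries, so this direction was largely set in advance. The difference of the age effect from other neurons was called for 0 genes in members, 180 with no filter, 119 with the stricter gate, 97 with no Malat1 minimum and 227 in gate-rich nuclei, and for 0 under the other 4 alternatives run. DESeq2 was not run for this difference. The cause of these changes was not tested. The share of members, 0.131 percentage points higher in the aged mean, was lower by alternatives, at -2.35 as a share of neurons, -0.248 with the stricter gate, -3.42 with more than 2000 genes (exact permutation p = 0.667), -0.164 with no Malat1 minimum, -0.317 thinned to 2000 UMIs and -0.583 for gate-rich nuclei, or -3.17 for these as a share of neurons (exact permutation p = 0.667). Without 1 aged replicate the difference ran from -1.58 to 1.84. Of 211 further values for 20 named genes, 195 stayed past the threshold or had no test, 16 did not pass and 0 changed direction. The values without 1 aged replicate had no test, and the rule that named the genes had fixed their direction. A gene with too few UMIs in a setting gave no value, as for Igha after subtraction of free RNA. With 1 adult library, depth limits rare transcripts: a count of 0 allows up to 3 UMIs per library.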

Other observations

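The gate-poor nuclei held genes of other sensory neuron groups beside the gate genes. Mrgprd had 122, 83.5 and 78.3 CPM in gate-poor nuclei, 7.47, 12.4 and 7.64 in gate-rich nuclei and 212, 115 and 123 in the gated non-peptidergic nuclei. The purinergic channel gene P2rx3 had 108, 152 and 164, 18.9, 16.3 and 31.8 and 289, 328 and 361, and the sodium channel gene Scn11a had 463, 459 and 426, 293, 309 and 332 and 1049, 852 and 849.9. For all 3 genes the gate-poor nuclei lay between the other sets in every library. Mrgprd was among the genes that chose the non-peptidergic nuclei, so its level there was set by the rule. P2rx3 and Scn11a chose none of these sets. Nefh, the heavy neurofilament chain of large fibres, had 594, 348 and 232 in gate-poor nuclei, 213, 235 and 64.8 in gate-rich nuclei and 1782, 1563 and 1051 in the gated large-fibre nuclei, which Nefh helped to choose. Th itself had 56.2, 29.4 and 22.1 in gate-poor nuclei against 7.41, 2.45 and 2.58 in non-peptidergic nuclei. Th helped to choose the former, and the rule for the latter limited their gate UMIs, so this contrast follows from the rules.

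Further genes, chosen after their values were seen, differed in their age effect between gate-rich nuclei and other neurons. Me3, a mitochondrial malic enzyme, had 31.4, 65.1 and 70.3 CPM in gate-rich nuclei and 25.6, 22.9 and 14.7 in other neurons (difference of the age effects 1.54, adjusted p = 2.87e-06), and was detected in 13.3, 23.8 and 26.7% of gate-rich nuclei at 5000 UMIs. Robo1, a receptor of SLIT guidance cues, had 269, 354 and 377 against 300.4, 176 and 163 (1.23, adjusted p = 9.94e-12). Grm8, a presynaptic glutamate receptor, had 325, 461 and 475 against 356, 269 and 227 (1.01, adjusted p = 1.23e-08). Mamdc2 fell in other neurons, with 105, 21.3 and 18.2, and had 96.4, 60.4 and 60.2 in gate-rich nuclei, where the age test did not pass (adjusted p = 0.0822; difference of the age effects 1.70, adjusted p = 2.33e-11).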
